A study of Mus musculus with 10 samples.

Results

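The mitochondrial solute carrier family Slc25 was described in heart muscle cells of mice that lack Actn2, the gene of alpha-actinin-2, an actin-crosslinking protein of the sarcomeric Z-disc. Its members were taken as every gene of the deposited count table whose name is Slc25a followed by a number, which gave 44 of 23337 genes. Of these, 37 had enough reads to be tested, among 11870 tested genes in all, and 7 did not. All mice received AAV9-cTNT-Cre on postnatal day 1, an adeno-associated virus in which the cardiac troponin T promoter drives the recombinase Cre, so that recombination was aimed at cardiomyocytes only. The knockout group (KO) carried the floxed allele on both chromosomes (Actn2F/F) and the control group carried it on one (Actn2F/+, called the heterozygotes, HET), with 5 mice in each. The controls therefore also carry Cre, the virus and a single deleted allele, and no group without virus is part of the comparison. Cardiomyocytes were taken on postnatal day 14 by collagenase perfusion and cell sorting, and the polyadenylated RNA of the sorted cells was sequenced.

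Proteins of the Slc25 family sit, with few exceptions, in the inner mitochondrial membrane and pass metabolites across it, most often as an exchange of a substrate inside for a substrate outside. They are encoded in the nucleus, made in the cytosol and inserted through the carrier branch of the mitochondrial import machinery. In heart muscle the family is best known for the ADP/ATP and phosphate carriers, which feed ATP synthase and export its product, for the carriers of the malate-aspartate shuttle and for the acylcarnitine carrier that brings fatty acids to beta-oxidation.

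Total counts ran from 8086656 to 25237696 per mouse, with the largest in heterozygote 1. Values per mouse are normalised read counts in CPM, each count over its library's TMM-scaled total, and single genes are ranked by level in RPKM (CPM per kilobase of exon). Sums over marker lists or the family, and shares of the family's counts, are not length-scaled and so weigh longer genes more. Actn2 itself stood at 1145 to 1286 CPM in the knockouts and at 2677 to 3474 CPM in the heterozygotes, a log2 fold change of -1.39 (SE 0.0910, adjusted p = 3.48e-07). Beside the marker counts that follow, 8.64% of all tested genes were called lower in the knockout and 10.2% higher (adjusted p below 0.05). Of the cardiomyocyte markers, 2 of 8 were called lower in the knockout (Tnni3 and Atp2a2), and their summed level was 96459 to 122057 CPM in knockouts and 103991 to 132826 CPM in heterozygotes. All 12 endothelial markers had a negative log2 fold change, 2 of them called lower (Egfl7 and Cldn5), and their summed level was 502 to 899.9 CPM in knockouts against 783 to 1400.5 CPM in heterozygotes. Of these 12, DESeq2 called 6 and voom 2, and 10 had an unadjusted p below 0.05 with edgeR. The immune markers summed to 9.05 to 12.1 CPM in knockouts and 14.8 to 41.1 CPM in heterozygotes (1 of 5 tested called lower, Csf1r). All 5 tested immune markers had a negative log2 fold change, with a median of -0.86. DESeq2 called 3 of them and voom 1, and 3 had an unadjusted p below 0.05 with edgeR. The fibroblast markers summed to 318 to 648 and 329.5 to 538 CPM with 0 of 7 called by edgeR, DESeq2 or voom and 0 at an unadjusted p below 0.05, and the mural markers to 522 to 672 and 439 to 669 CPM with 1 of 6 called, Cspg4, which was higher. Cspg4 rose from a mean of 37.0 CPM in heterozygotes to 132 CPM in knockouts, which lifts the mural sum. The other 5 mural markers had a negative log2 fold change, and the median of the list was -0.34. The erythroid list summed to at most 1.41 CPM, with the globin genes Hba-a1, Hba-a2, Hbb-b1 and Hbb-b2 listed at 0 in every library, although reads of such near-identical copies may be left out by the counting. The part of these other cells in the results below was not tested beyond a fit with the endothelial markers as a covariate. In RNA from many cells, fewer cells of a type and less RNA per cell cannot be told apart.

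The promoters of 4 members are shown here because the text returns to these genes: Slc25a4 and Slc25a5 are the muscle and the widespread ADP/ATP carrier, Slc25a11 is a metabolite carrier that was lower in the knockout, and Slc25a23 is the only member that was called higher. Each run holds the 250 bases before the start of a RefSeq transcript (build GRCm38.p6, which is mm10), written 5′ to 3′ on the strand of the gene. Capitals mark GC boxes (GGGCGG, or CCGCCC where the match is on the other strand) and CCAAT boxes (CCAAT, or ATTGG on the other strand), and no marked matches overlap.
Slc25a4 promoter, chr8:46211063-46211312, minus strand: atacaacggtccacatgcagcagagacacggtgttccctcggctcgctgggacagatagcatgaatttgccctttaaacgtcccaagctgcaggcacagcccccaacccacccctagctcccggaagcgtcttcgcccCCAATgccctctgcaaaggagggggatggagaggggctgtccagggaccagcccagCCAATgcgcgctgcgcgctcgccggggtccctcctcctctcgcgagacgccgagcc
Slc25a5 promoter, chrX:36795347-36795596, plus strand: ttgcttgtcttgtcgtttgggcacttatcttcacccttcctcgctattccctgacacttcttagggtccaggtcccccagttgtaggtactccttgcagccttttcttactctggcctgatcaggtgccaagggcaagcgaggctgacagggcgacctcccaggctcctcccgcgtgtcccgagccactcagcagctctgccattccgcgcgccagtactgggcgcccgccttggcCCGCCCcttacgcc
Slc25a11 promoter, chr11:70647040-70647289, minus strand: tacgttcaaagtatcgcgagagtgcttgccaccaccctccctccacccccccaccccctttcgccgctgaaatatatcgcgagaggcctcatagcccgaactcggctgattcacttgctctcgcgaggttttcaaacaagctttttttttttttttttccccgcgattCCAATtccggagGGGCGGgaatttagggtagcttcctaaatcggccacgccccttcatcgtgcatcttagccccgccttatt
Slc25a23 promoter, chr17:57059864-57060113, minus strand: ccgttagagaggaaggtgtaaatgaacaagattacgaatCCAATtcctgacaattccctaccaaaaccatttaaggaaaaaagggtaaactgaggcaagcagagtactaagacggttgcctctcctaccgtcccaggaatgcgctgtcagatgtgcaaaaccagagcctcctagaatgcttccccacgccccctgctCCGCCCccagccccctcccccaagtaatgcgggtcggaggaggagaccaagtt
The Slc25a4 window held 2 CCAAT boxes, beginning 112 and 56 bases before the start, and no GC box. In Slc25a5 there was 1 GC box, 14 bases before the start, and no CCAAT box. Slc25a11 and Slc25a23 each held 1 of both, at 70 bases (GC box) and 82 bases (CCAAT) in Slc25a11 and at 53 and 211 bases in Slc25a23. RefSeq lists another start of Slc25a23, 21 bases downstream, whose window held 2 GC boxes (74 and 14 bases before that start) and the same CCAAT box.

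RefSeq gave a promoter window for 34 members, of which 29 were tested, and for 8530 tested genes in all. The GC box was present in 22 of 29 members and in 65.7% of all tested genes with a window, and CCAAT in 16 of 29 against 40.8%. Both were searched after the data had been seen, as was the TATA box TATAAA, found in 0 of 29 members and 7.83% of all. The letters of the other motifs were searched on both strands as well. An E-box, CACGTG, lay in 6 of 29 members (Slc25a1, Slc25a13, Slc25a14, Slc25a15, Slc25a33 and Slc25a36) and in 10.3% of all. It lay in 0 of the 10 members that were lower in the knockout, and in 8.17% of all 771 lower genes with a window. At that share, 0 of 10 is not a result about these members. The GC box lay in 8 of the 10 and CCAAT in 5, against 62.0% and 44.1% of all lower genes. TNAAGGTCA, the extended half-site of oestrogen-related receptors, was found in 0.797% of all windows, the NRF1 motif GCGCATGCG in 3.61%, the YY1 motif AAGATGGCG in 1.44% and the ATF4/CHOP motif TGATGNAA in 2.33%, and each in 0 of the 29 members. A match describes letters in this window and is not shown to be a bound site.

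In the knockout, 10 of the 37 tested carriers fell and 1 rose. Called here means an adjusted p below 0.05 from edgeR's quasi-likelihood test with Benjamini-Hochberg adjustment over all 11870 genes. The 10 that fell were Slc25a3, Slc25a4, Slc25a5, Slc25a10, Slc25a11, Slc25a20, Slc25a22, Slc25a28, Slc25a34 and Slc25a39, and Slc25a23 rose. Among all tested genes 8.64% were called lower and 10.2% higher (18.9% in either direction), while 27.0% of the tested carriers were called lower. The median log2 fold change was -0.22 over the 37 carriers and 0.00 over all tested genes, and 24 carriers had a negative and 13 a positive value. In 9 members every knockout lay below every heterozygote and in 0 above, whereas the groups were apart in 14.7% of all tested genes (6.32% lower, 8.41% higher). With the mean level of the endothelial markers as a covariate, 9 of the 37 carriers were called, all lower. Over all tested genes the covariate left 1135 called, or 9.56% (4.84% lower), against 18.9% (8.64% lower) without it. In that fit Slc25a5, Slc25a23 and Slc25a28 lost their call.

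**Figure D1:**
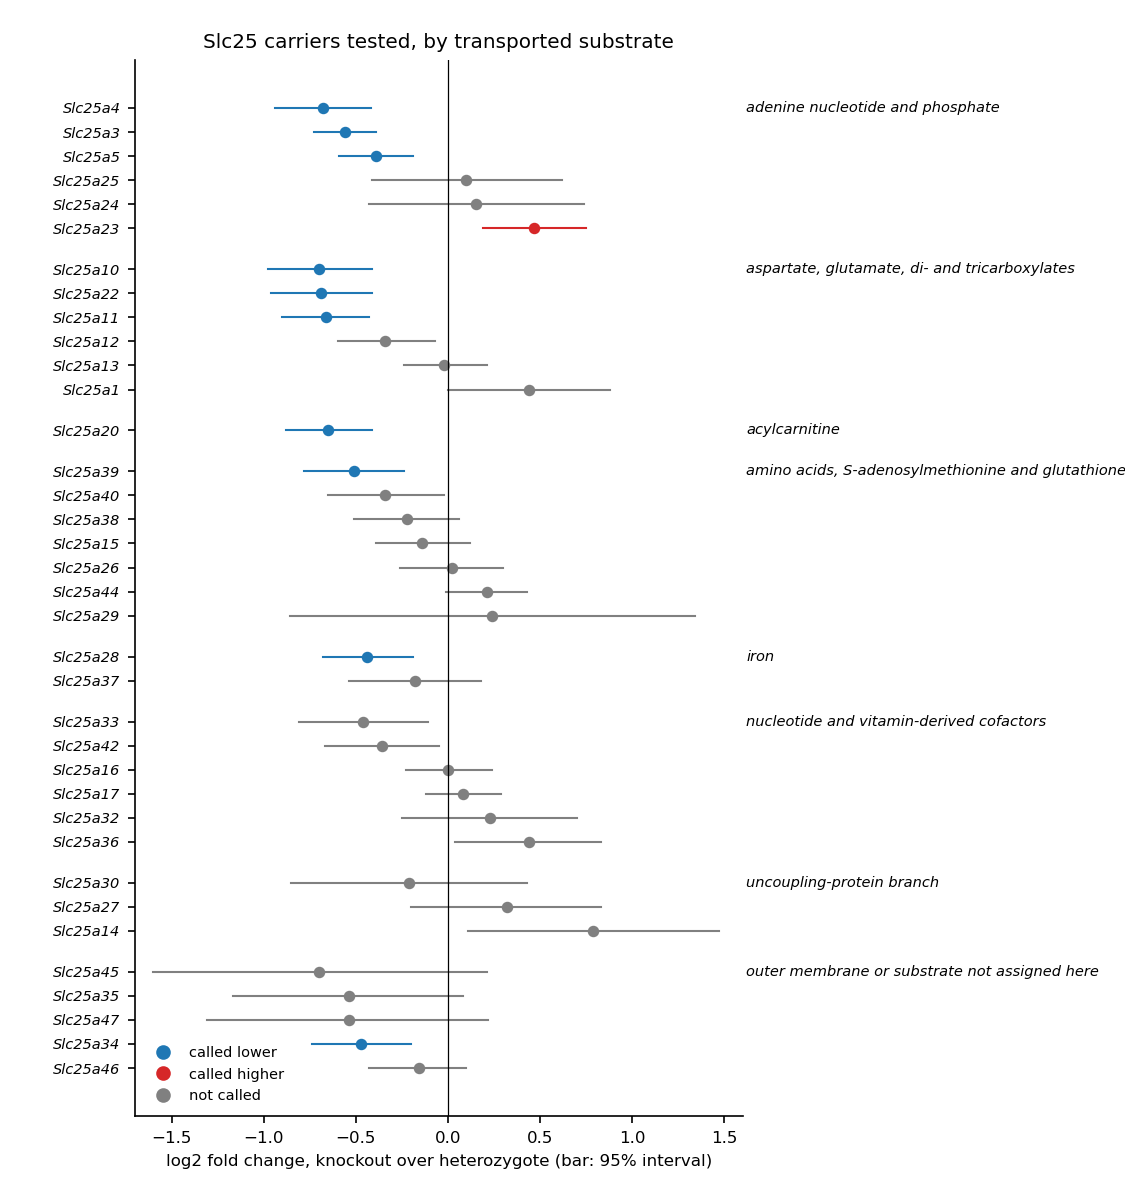
Log2 fold change, knockout over heterozygote (horizontal axis), of the tested Slc25 carriers reported individually, sorted by transported substrate. Points are estimates and bars 95% intervals. The 10 carriers called lower lie between -0.70 and -0.39, and Slc25a23, at 0.47, is the only one called higher.

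The summed counts of all 44 members were 14454, 17744, 13204, 12336 and 13808 CPM in heterozygotes 1 to 5 and 10809.7, 9503, 9035, 9398 and 9081 CPM in knockouts 1 to 5. Every knockout lay below every heterozygote, and heterozygote 2 was the highest. Most of this sum is a single gene, Slc25a4, which took 59.1% ± 2.56 (SD, n = 5) of the family's counts in heterozygotes and 55.3% ± 1.72 in knockouts. Its share of the family's RPKM was 69.9% ± 2.17 and 66.9% ± 1.51, so the sum mainly reports this gene, and no test was made on it. Only 7 members exceeded 1% of the family's RPKM in the heterozygote.

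By length-scaled level the 5 leading carriers in the heterozygote were Slc25a4 (7687 ± 1469.8 RPKM, SD, n = 5), Slc25a3 (1114 ± 56.8), Slc25a5 (723 ± 83.9), Slc25a11 (492 ± 75.4) and Slc25a20 (214 ± 35.0). In the knockout the same genes stood, in this order, at 4788 ± 518, 756 ± 44.5, 551 ± 37.7, 311 ± 25.8 and 137 ± 7.43 RPKM. All of them were among the carriers that fell. Of the 10 members of highest level (at least 47.0 RPKM over all mice), 7 were called lower and 3 were not called (Slc25a12, Slc25a13 and Slc25a42). Of the other 27, whose level was at most 36.3 RPKM, 3 were called lower (Slc25a10, Slc25a22 and Slc25a28) and 1 higher. The share called lower was 70.0% in the 10 of highest level. It was 11.1% in the other 27, near the 8.64% of all tested genes. The abundant members were also measured more precisely: the median SE of the log2 fold change was 0.115 in the upper 10 and 0.167 in the others. The median log2 fold change was -0.49 in the upper 10, all of which were negative (Slc25a13, at -0.02, was positive with library totals, thinned libraries, either covariate, or without heterozygote 1, heterozygote 5 or knockout 1), and -0.14 in the others, of which 14 were negative and 13 positive. The difference between these level groups was not tested.

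**Figure D2:**
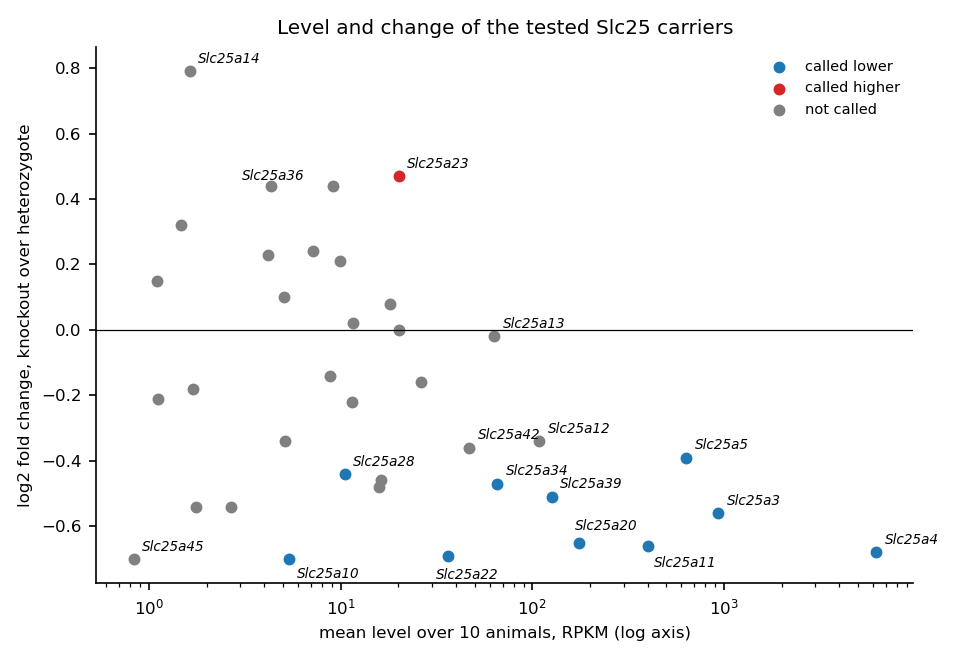
Mean level over all 10 mice in RPKM (horizontal log axis) against log2 fold change, knockout over heterozygote, with 1 point per tested carrier. All 10 members at or above 47.0 RPKM lie below 0 (Slc25a13, at -0.02, turned positive in 7 alternatives), while the less abundant ones lie on both sides.

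Of the 6 tested carriers of adenine nucleotides and phosphate, 3 fell, 1 rose and 2 were not called. Over all tested genes 8.64% were called lower and 10.2% higher, the background for this and the following substrate groups. The groups are small, and their counts were not compared by a test. Slc25a4 (chr8:46207341-46211009, 4 exons) encodes the ADP/ATP carrier of heart and skeletal muscle, which exchanges cytosolic ADP for matrix ATP. It stood at 8339, 11264, 7677, 7041 and 8187 CPM in heterozygotes 1 to 5 and at 6293, 5257, 4909.9, 5066 and 4953 CPM in knockouts 1 to 5. The groups did not overlap, heterozygote 2 was the highest library and knockout 1 stood above the other knockouts. The fitted level in the knockout was 62.3% of that in the heterozygote, a log2 fold change of -0.68 (SE 0.121, adjusted p = 0.00135). Slc25a3 (chr10:91116578-91123963, 8 exons), the phosphate carrier, supplies the phosphate that ATP synthase joins to ADP. Its values were 1748, 1720.1, 1542, 1666 and 1743 CPM in the heterozygotes and 1245, 1116, 1120.2, 1165 and 1066 CPM in the knockouts. The groups were far apart for their spread, at 1684 ± 85.9 CPM in heterozygotes and 1143 ± 67.3 CPM in knockouts (SD, n = 5). Its fold change on the log2 scale was -0.56 (SE 0.0773, adjusted p = 0.000196), and this SE and p were the lowest among the called carriers.

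Slc25a5 (chrX:36795652-36798806, 4 exons) encodes the ADP/ATP carrier made in most tissues. Its counts are uncertain because the genome holds near-identical processed copies of it, and reads that align to several places may have been left out. It measured 902, 1060.3, 792, 896 and 822 CPM in the heterozygotes and 744, 612, 685, 686 and 686 CPM in the knockouts. Again all knockouts were below all heterozygotes, the nearest being knockout 1 and heterozygote 3. The log2 fold change of -0.39 (SE 0.0941, adjusted p = 0.00988) was the smallest among the carriers that fell, and with the endothelial covariate it was -0.42 at adjusted p = 0.0612, outside the threshold; over all 22 alternative fits the adjusted p ran from 0.000471 to 0.0612. Within the ADP/ATP pair, Slc25a4 held 91.2%, 92.2%, 91.6%, 89.8% and 91.8% of the length-scaled counts in heterozygotes and 90.5%, 90.6%, 88.9%, 89.2% and 89.0% in knockouts. These shares overlapped through heterozygote 4. Their means, 91.3% ± 0.930 and 89.6% ± 0.816 (SD, n = 5), differed by -1.68 percentage points, with an exact two-sided permutation p of 0.0317 that became 0.0952 after adjustment over the 6 paralog shares.

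Slc25a23 (chr17:57043711-57059863, 10 exons) is one of the calcium-regulated carriers that exchange ATP-Mg for phosphate and so set the adenine nucleotide pool of the matrix. It was at 53.2, 77.4, 59.6, 44.1 and 49.3 CPM in heterozygotes and 86.8, 76.3, 81.6, 73.6 and 74.1 CPM in knockouts. The groups overlapped, since heterozygote 2 lay above 3 of the 5 knockouts. Its log2 fold change was 0.47 (SE 0.132, adjusted p = 0.0228), a fitted level of 139% of that in the heterozygote. That call was the least stable in the family: the adjusted p was 0.0526 without heterozygote 1, 0.0546 without heterozygote 5, 0.0537 without knockout 1, 0.0537 without knockout 3 and 0.253 with the endothelial covariate, within a range of 0.000530 to 0.253 over all 22 alternatives. The related Slc25a24 (log2 0.15, 95% interval -0.43 to 0.74) and Slc25a25 (0.10, -0.41 to 0.62) were not called, and both estimates turned negative without knockout 4 (-0.0186 and -0.13). Slc25a25 shares 404 exon bases with Naif1, and reads there are lost to both genes. Slc25a24 held 4.73% ± 1.92 of the length-scaled counts of these 3 genes in heterozygotes and 3.88% ± 1.07 in knockouts (exact permutation p = 0.460, adjusted 0.552). Slc25a31, the ADP/ATP carrier of germ cells, and Slc25a41 were below the filter, at no more than 1.23 and 0.128 CPM in any mouse.

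**Figure D3:**
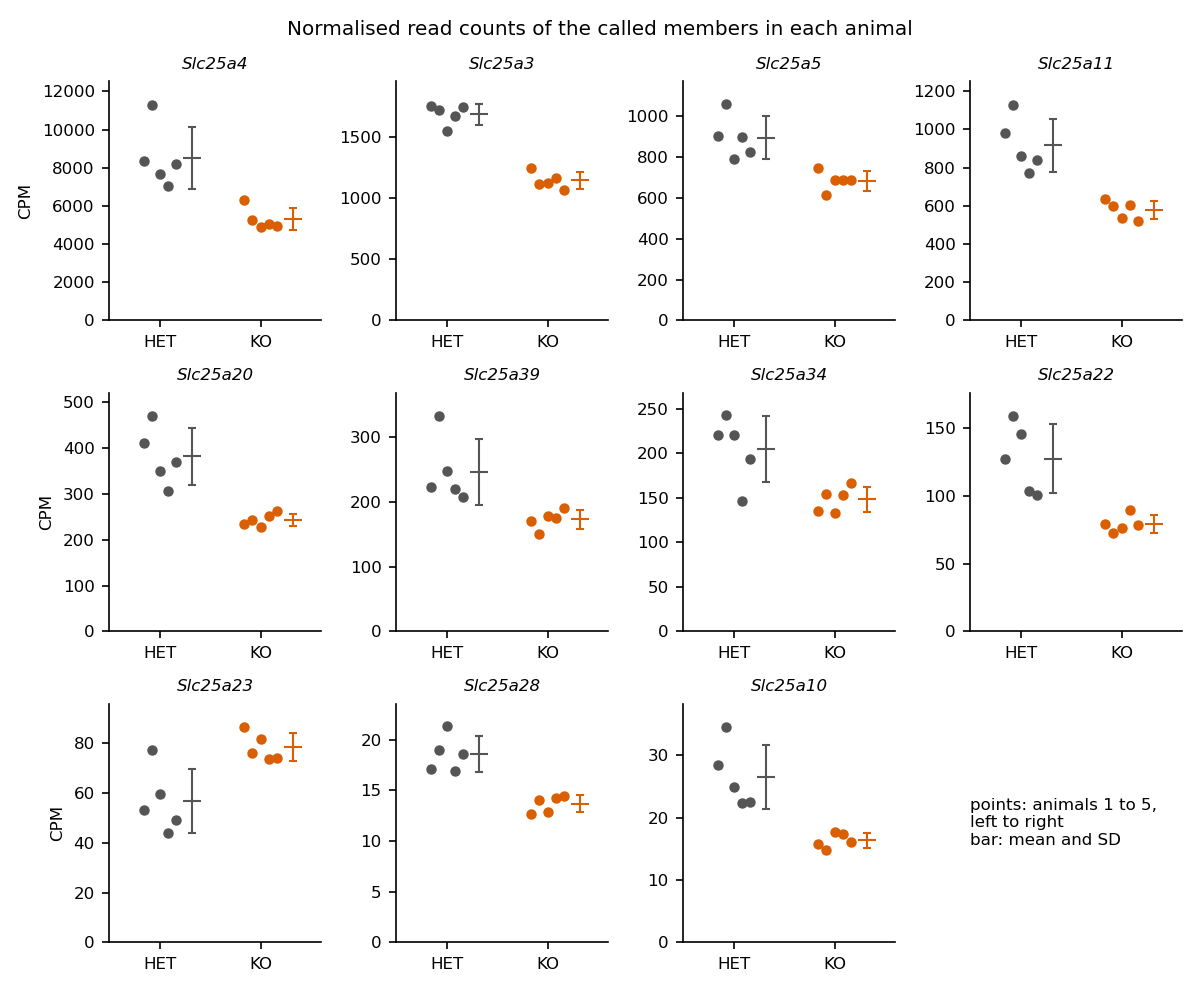
Normalised read counts in CPM (vertical axes, from 0) of the 11 called carriers in heterozygotes and knockouts; points are mice 1 to 5 from left to right, and the bar is the mean and SD. In 9 panels all knockouts lie below all heterozygotes, and in the panels of Slc25a34 and Slc25a23 the groups overlap.

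Of the carriers of aspartate, glutamate and di- and tricarboxylates, 3 of 6 tested fell, against 8.64% of all tested genes. None of the others was called, and 5 of 6 had a negative log2 fold change. Slc25a11 (chr11:70644027-70647039, 8 exons), the oxoglutarate carrier, takes malate into the matrix in exchange for 2-oxoglutarate as one arm of the malate-aspartate shuttle. It stood at 981, 1127, 861, 769 and 841 CPM in heterozygotes and at 633, 598, 536, 604 and 520.3 CPM in knockouts. The lowest heterozygote, number 4, lay above the highest knockout, number 1. The log2 fold change was -0.66 (SE 0.108, adjusted p = 0.000757), with means of 916 ± 140.3 and 578 ± 48.0 CPM (SD, n = 5). The other arm of the shuttle is the aspartate/glutamate exchange, carried by Slc25a12 and Slc25a13, both of which bind calcium. Neither was called: Slc25a12, the main isoform of heart and brain, had a log2 fold change of -0.34 (95% interval -0.60 to -0.07, adjusted p = 0.0747), and Slc25a13, the main isoform of liver, of -0.02 (-0.24 to 0.21, adjusted p = 0.941). Slc25a12 passed the threshold in 6 of the 22 alternatives, among them without heterozygote 4 (0.0279) or without knockout 1 (0.0396), with an adjusted p of 0.0279 to 0.174 over all of them. Slc25a13 held 34.4% ± 5.17 of the length-scaled counts of the pair in heterozygotes and 39.8% ± 4.43 in knockouts, higher by 5.35 points, with an exact permutation p of 0.119 (0.179 adjusted).

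Slc25a10 (chr11:120491837-120501161, 11 exons), the dicarboxylate carrier, exchanges malate or succinate for phosphate. It was at 28.4, 34.5, 24.9, 22.3 and 22.6 CPM in heterozygotes and 15.8, 14.9, 17.7, 17.4 and 16.1 CPM in knockouts. No mouse crossed between the groups, and heterozygotes 1 and 2 were the highest. Its log2 fold change of -0.70 (SE 0.132, adjusted p = 0.00217) was the most negative among the called members, although its level was only 6.63 ± 1.27 RPKM in heterozygotes. Slc25a22 (chr7:141429749-141437874, 11 exons) brings glutamate into the matrix together with a proton. Its values were 127, 159, 146, 104 and 101 CPM in heterozygotes and 79.0, 72.6, 76.4, 89.7 and 78.8 CPM in knockouts. They were apart, with heterozygotes 4 and 5 nearest to the knockouts. The log2 fold change was -0.69 (SE 0.127, adjusted p = 0.00180). Slc25a1, the citrate carrier that exports citrate for lipid synthesis, was not called, at 0.44 (95% interval -0.00 to 0.88, adjusted p = 0.155); without heterozygote 2 it was 0.66 at adjusted p = 0.00990, and over all 22 alternatives the adjusted p ran from 0.00990 to 0.418. Slc25a18, the second glutamate carrier, and Slc25a21, the oxodicarboxylate carrier, were below the filter.

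Slc25a20 (chr9:108662098-108684641, 9 exons) encodes the carnitine/acylcarnitine carrier, which brings long-chain acylcarnitines into the matrix for beta-oxidation and returns free carnitine. It was at 412, 471, 351, 307 and 369.6 CPM in heterozygotes and at 234, 243, 229, 251 and 262 CPM in knockouts. The knockouts lay within a narrow range, below all heterozygotes. The means were 382 ± 62.5 and 244 ± 13.3 CPM (SD, n = 5), with a log2 fold change of -0.65 (SE 0.110, adjusted p = 0.000983).

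Among the 7 tested carriers of amino acids, S-adenosylmethionine and glutathione, 1 fell and 6 were not called. With 8.64% of all tested genes called lower, 1 of 7 is not a result about these carriers. Slc25a39 (chr11:102402976-102407517, 12 exons) takes glutathione into mitochondria. Its values were 223, 333, 248, 220.2 and 208 CPM in heterozygotes and 171, 151, 178, 175 and 191 CPM in knockouts. Heterozygote 2 stood well above the other heterozygotes, and the groups did not overlap. The log2 fold change was -0.51 (SE 0.126, adjusted p = 0.0116). Its close relative Slc25a40 had -0.34 (95% interval -0.65 to -0.02, adjusted p = 0.126) and was not called, although without heterozygote 2 its adjusted p was 0.0380 (0.0380 to 0.498 over all 22 alternatives). Slc25a40 made up 3.91% ± 1.29 of the pair's length-scaled counts in heterozygotes and 4.21% ± 0.368 in knockouts (exact permutation p = 0.690, adjusted 0.690), and the sign of this difference turned to -0.160 points without heterozygote 2. The other 5 ranged from -0.22 to 0.24 in log2 fold change: the mitochondrial glycine carrier Slc25a38, the ornithine carrier Slc25a15, the S-adenosylmethionine carrier Slc25a26, the branched-chain amino acid carrier Slc25a44 and the basic amino acid carrier Slc25a29. Slc25a29 varied most, from 2.66 CPM in heterozygote 4 to 31.1 CPM in heterozygote 2, so that its 95% interval reached from -0.86 to 1.34. Slc25a26 shares 124 exon bases with Lrig1.

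Both mitoferrins, which carry iron to the matrix for haem and iron-sulphur cluster synthesis, were tested. Slc25a28 (chr19:43663801-43674881, 4 exons), mitoferrin-2, is the form found in most tissues. It was at 17.1, 19, 21.4, 16.9 and 18.6 CPM in heterozygotes and at 12.7, 14.1, 12.9, 14.3 and 14.5 CPM in knockouts. There was no overlap between the groups. The log2 fold change was -0.44 (SE 0.114, adjusted p = 0.0155), and with the endothelial covariate -0.45 at adjusted p = 0.0910, outside the threshold, in a range of 0.00368 to 0.0910 over all 22 alternatives. Slc25a37, mitoferrin-1, best known from developing red cells, was not called at -0.18 (95% interval -0.54 to 0.18, adjusted p = 0.490). It held 12.9% ± 0.979 of the pair's length-scaled counts in heterozygotes and 15.1% ± 1.87 in knockouts, higher by 2.19 points, with an exact permutation p of 0.0556 (0.111 adjusted).

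Of the 7 tested carriers of nucleotides and vitamin-derived cofactors, 0 were called by edgeR, 2 by DESeq2 and 2 by voom, and 4 had an unadjusted p below 0.05. Over all tested genes edgeR called 18.9%, DESeq2 22.1% and voom 21.3%. At these shares, counts of 0 and 2 of 7 are not a result about these carriers. The pyrimidine nucleotide carrier Slc25a33 had a log2 fold change of -0.46 (95% interval -0.81 to -0.11, adjusted p = 0.0645) and the coenzyme A carrier Slc25a42 of -0.36 (-0.67 to -0.05, adjusted p = 0.0968). Across the 22 alternatives they were called in 3 each, and their adjusted p ran from 0.0301 to 0.410 and from 0.0143 to 0.222. Single mice were enough for this: Slc25a33 passed without heterozygote 1 and Slc25a42 without heterozygote 4 or knockout 2. In the other direction, the pyrimidine nucleotide carrier Slc25a36 had 0.44 (0.04 to 0.83, adjusted p = 0.115). The estimates of Slc25a33 and Slc25a36 thus had opposite signs, neither past the threshold. Slc25a36 held 37.9%, 19.1%, 24.5%, 31.0% and 34.8% of the pair's length-scaled counts in heterozygotes and 37.1%, 57.7%, 48.8%, 36.3% and 38.2% in knockouts. The shares overlapped, because heterozygote 1 was above knockouts 1 and 4. They differed by 14.2 points (29.5% ± 7.63 and 43.6% ± 9.37, SD, n = 5), with an exact permutation p of 0.0238 that was 0.0952 after adjustment over the 6 shares. Slc25a16, the peroxisomal carrier Slc25a17 and the folate and FAD carrier Slc25a32 had log2 fold changes of 0.00 to 0.23.

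**Figure D4:**
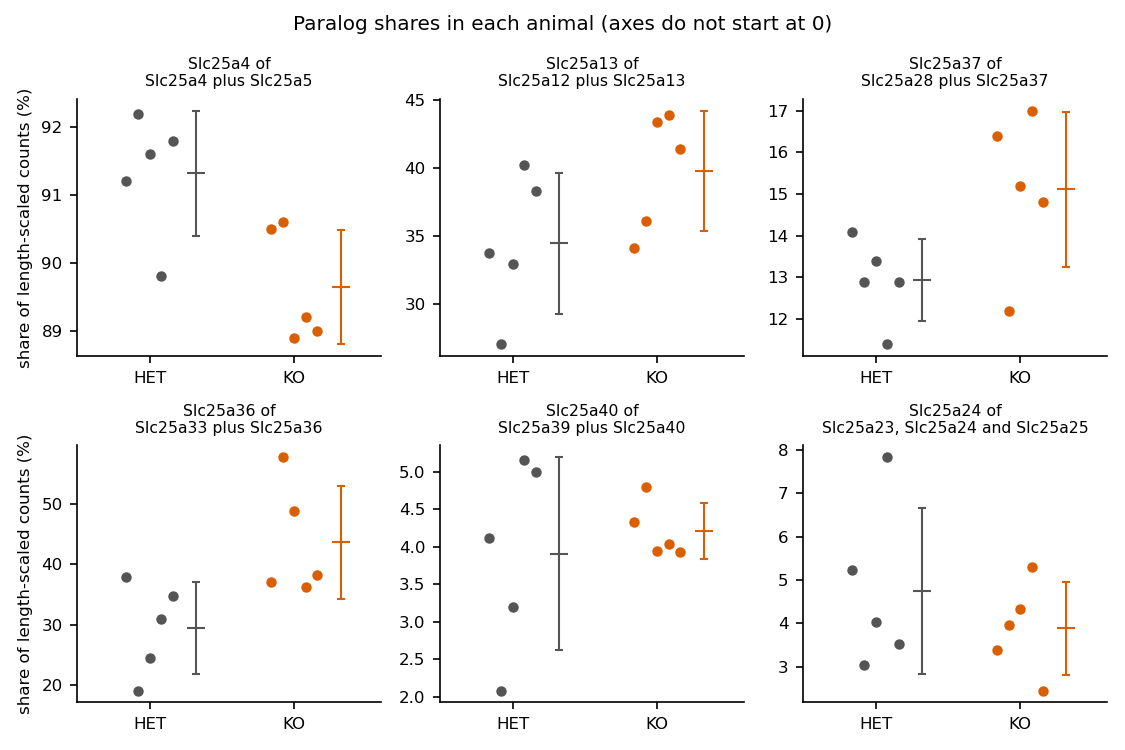
Share of 1 paralog in the length-scaled counts of its pair or trio, in percent (vertical axes, which do not start at 0), in each of the 5 heterozygotes and 5 knockouts, with the mean and SD. The groups overlap in all 6 panels, and the lowest adjusted p of the exact permutation test is 0.0952.

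Of the branch related to the uncoupling proteins, 0 of 3 tested members were called by edgeR in the main fit or by DESeq2. As edgeR called 18.9% of all tested genes, 0 of 3 is not a result about these members. Slc25a14 was called by voom and by edgeR with the Y-linked covariate (0.96, adjusted p = 0.0262). In the main fit 1 member had an unadjusted p below 0.05. Slc25a14 had the largest positive estimate of the family, 0.79 (95% interval 0.11 to 1.47, adjusted p = 0.102, and 0.0262 to 0.573 over its alternatives), at a level of only 2.16 ± 0.851 CPM in heterozygotes and 3.59 ± 0.981 CPM in knockouts (SD, n = 5). Slc25a27 was at 0.32 and Slc25a30 at -0.21, each with an interval that includes 0. The uncoupling proteins themselves, which belong to the same family under other names, are given with the partner genes.

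Of the 5 tested members of the outer membrane or with no substrate assigned here, 1 fell and all had a negative log2 fold change (Slc25a45 was positive, at 0.11, with the endothelial covariate). Against 8.64% of all tested genes called lower, 1 of 5 is not a result about these members. Slc25a34 (chr4:141618825-141623834, 5 exons) was at 220.3, 243, 221, 146 and 194 CPM in heterozygotes and at 135, 154, 133, 153 and 167 CPM in knockouts. The groups overlapped, as heterozygote 4 lay below 3 of the 5 knockouts. Its log2 fold change was -0.47 (SE 0.127, adjusted p = 0.0189), and without knockout 3 the adjusted p was 0.0555, the highest of the 22 alternatives, whose lowest was 0.00178. Slc25a46, which lies in the outer membrane and takes part in mitochondrial dynamics, was not called at -0.16 (95% interval -0.43 to 0.10). Slc25a35, Slc25a45 and Slc25a47, at no more than 7.70 CPM in any mouse, had estimates from -0.70 to -0.54 with intervals that include 0. Slc25a35, which shares 29 exon bases with Rangrf, was called without knockout 1 (-0.91, adjusted p = 0.0164, against 0.631 as the highest of its alternatives).

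The 7 members below the filter were Slc25a2, Slc25a18, Slc25a21, Slc25a31, Slc25a41, Slc25a43 and Slc25a48. Their highest count in any mouse was 12, and Slc25a48 had 0 reads in all 10, where 3 counts, the limit that a count of 0 allows, correspond to 0.119 to 0.371 CPM. No fold change is given for them.

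The partner genes of these carriers were taken from lists by function, and the lists were chosen with earlier results of these data known. For the counts below, 8.64% of all tested genes were called lower and 10.2% higher. Genes of the same family under other names fell in 2 of 5 tested: Ucp3, the uncoupling protein of muscle (log2 -0.65, SE 0.179, adjusted p = 0.0206), and Mtch2, an outer-membrane relative (-0.30, SE 0.0847, adjusted p = 0.0221). Ucp2, at 209 RPKM in heterozygotes, was not called (-0.40, SE 0.167, adjusted p = 0.112), and Ucp1 had 0 reads in every mouse. Of the import machinery that inserts carriers, 1 of 13 tested genes fell, Tomm40, the channel of the outer-membrane translocase (-0.48, SE 0.135, adjusted p = 0.0237), and the median of the list was -0.16. This share, 7.69%, was near that of all tested genes. All 6 tested genes of the outer-membrane channels Vdac1, Vdac2 and Vdac3, the pyruvate carrier subunits Brp44l and Brp44 (now called Mpc1 and Mpc2) and Ppif, the cyclophilin that acts on the permeability pore, were called lower, at -0.67 to -0.26. Here Vdac3 lost its call in 13 of the 22 alternatives, and Vdac2 and Brp44l with the endothelial covariate only.

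Enzymes that work with the carriers were described by the same lists, again beside 8.64% of all tested genes called lower. Of the malate-aspartate and glycerol phosphate shuttle enzymes 4 of 6 were called lower, namely the cytosolic and mitochondrial aspartate aminotransferases Got1 (-0.68) and Got2 (-0.52) and malate dehydrogenases Mdh1 (-0.46) and Mdh2 (-0.63), at adjusted p of 0.00235, 0.00341, 0.000966 and 0.000407. Of the carnitine shuttle 3 of 6 were called lower: Cpt2, which re-forms acyl-CoA in the matrix (-0.72, adjusted p = 0.000216), Crat, carnitine acetyltransferase (-0.69, adjusted p = 0.000781), and Slc22a5, the plasma membrane carnitine transporter (-0.55, adjusted p = 0.00655). The outer-membrane enzymes Cpt1a and Cpt1b, which act before Slc25a20, were at 0.13 and -0.03 and not called. Cpt1b shares 2744 of its 2894 exon bases with BC090627, and reads there are lost to both genes, so its value rests on the small rest of the gene. All 3 tested creatine kinases, which pass on the phosphate of exported ATP, were lower: Ckm at -1.0 (adjusted p = 4.12e-05), Ckb at -0.94 (8.69e-05) and the mitochondrial Ckmt2 at -0.62 (0.0104). Of the haem and iron-sulphur genes, which use the iron brought in by the mitoferrins, 6 of 12 were called lower, led by Alas1, the first enzyme of haem synthesis (-1.27, SE 0.174, adjusted p = 0.000179), and Alad (-0.71, SE 0.119, adjusted p = 0.000956). Urod (-0.35) and Nfs1 (-0.29) were among the others.

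All 25 called genes of these 7 partner lists were lower, and 15 of them kept their call in all 22 alternatives. Among the other 10 were Brp44l, Ckmt2, Mtch2, Nfs1, Tomm40, Ucp3, Urod, Vdac2 and Vdac3. Single mice decided some of these: Ucp3 without knockout 2 or 3, Tomm40 without knockout 3 or 5, Urod without knockout 3, Mtch2 without knockout 2 or 5, and Nfs1 without heterozygote 1 or knockouts 3 to 5. The highest adjusted p of these 5 genes was 0.0503 to 0.151 over all alternatives.

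**Figure D5:**
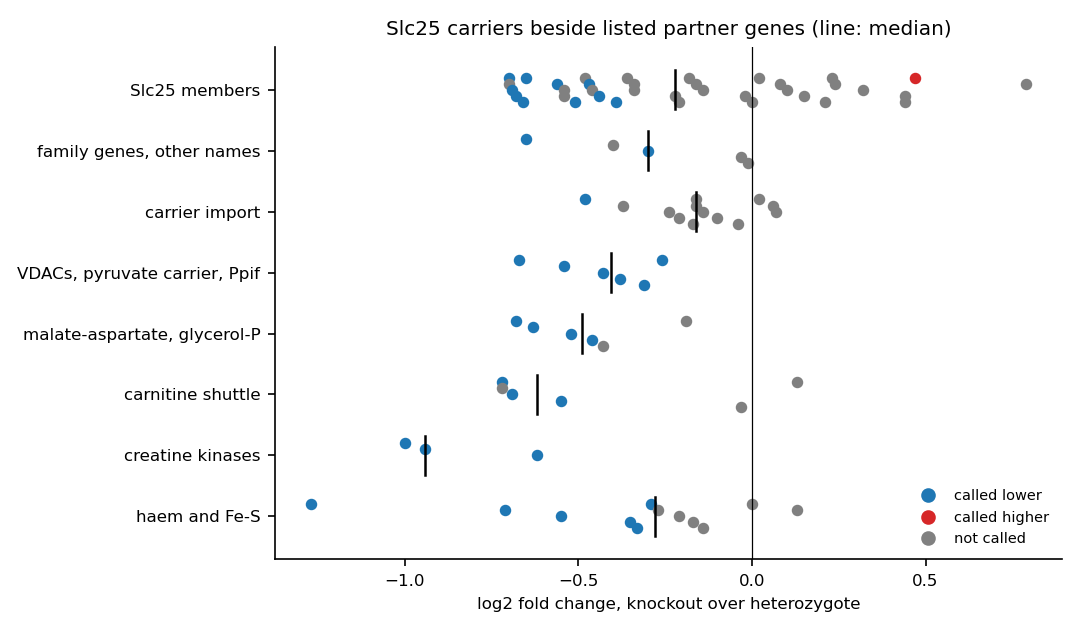
Log2 fold change, knockout over heterozygote (horizontal axis), of the tested Slc25 carriers and of 7 lists of partner genes, with 1 point per gene and a line at each median. The medians are -0.22 for the carriers, -0.16 for the import machinery and -0.94 for the creatine kinases, and Slc25a23 is the only gene shown as called higher.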

How the data were processed

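Per the labels' protocols, RNA (10 ng) was amplified by 8 PCR cycles (SMART-Seq v4) and 500 pg of cDNA went into Nextera XT libraries. The deposited counts are raw whole reads per gene. They came from featureCounts 1.5.1 (4 threads, otherwise defaults) on a UCSC mm10 annotation archived in 2012, per the file headers. The submitters' processing notes list Subread 1.5.2, STAR 2.5.3a and CASAVA 1.8, while the file header lists alignments under the default name of another aligner, so the aligner is uncertain. With these defaults strand is ignored, and multi-mapped reads and reads on overlapping genes are dropped. The table holds 14 count columns, of which 4 match no sample here and were not used.

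Genes were filtered with filterByExpr (minimum count 10, total 15), scaled by TMM and tested with edgeR 4.0.16 (R 4.3.3) over all 10 libraries without covariates. SE is the size of the log2 fold change over the square root of F, and 95% intervals use the t distribution of that fit. RPKM divides CPM by merged exon length, and shares use length-scaled counts. Exact permutation tests (scipy 1.17.1) used all 252 arrangements, smallest p 0.00794. Values in every mouse are given for called members and the 5 of highest RPKM; listed genes are named when called, and those named otherwise were chosen after their values were seen. Some tested genes are counted but not reported individually here. Members and lists were chosen with earlier results of these data known. Simulated counts (11777 genes) gave calls for 81.7% of 104 genes changed 2-fold and 100% of 90 changed 4-fold, 5.91% false calls, and 0 calls with no change. Changes below 2-fold, the size of all called carriers here, were not simulated, so recovery at that size is unknown. Far fewer genes were changed there than the 2241 called in these data. Alternatives were RLE, upper-quartile and total scaling, no filter, a mean of at least 5 CPM, a replicate block, DESeq2 1.42.0, voom (limma 3.58.1), 1 surrogate variable (sva 3.50.0), endothelial and Y-linked covariates, thinning to the smallest total, and leaving out each mouse. Each group has 5 biological replicates per the labels, and limits from a count of 0 cover counting error only. Promoter sequences are from RefSeq (GRCm38.p6).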

Additional observations from a re-analysis of the deposited data

Results flagged for a closer look

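In 7 of 86 groups of 5 values, the highest or lowest mouse stood apart from the others by more than 0.71 of the group's range (log2 CPM with a prior count of 1 for members, percent for paralog shares), where chance gives about 1 in 20 groups, or 4. Heterozygote 2 was such a mouse in 4 of them: highest for Slc25a1 (3.33, the next heterozygote 2.52) and lowest for Slc25a13 (7.22, next 7.66), Slc25a27 (0.95, next 1.90) and Slc25a36 (3.78, next 4.66). Over the 37 tested members this mouse was the highest heterozygote in 14 and the lowest in 8, and heterozygote 4 was the lowest in 18. Among knockouts, mouse 1 was high for Slc25a4 (12.62, next 12.36), mouse 5 for Slc25a14 (2.43, next 1.77) and mouse 2 for Slc25a42 (7.35, next 6.97). Heterozygote 2 was also the highest heterozygote in 8 of the 10 carriers called lower, and without it 13 carriers were called, 11 lower and 2 higher, among them all 11 of the full comparison.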

How the results depend on the processing

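Over 22 alternatives, Slc25a3, Slc25a4, Slc25a10, Slc25a11, Slc25a20, Slc25a22 and Slc25a39 were called lower in every one, and of 242 combinations of a called member and an alternative 234 kept the call and none changed sign. The calls lost were those of Slc25a5 and Slc25a28 (endothelial covariate), Slc25a34 (without knockout 3) and Slc25a23 (endothelial covariate, or without heterozygote 1 or 5 or knockout 1 or 3). The number of members called was 17 with voom, and the number called higher 2 with the Y-linked covariate, 0 with the endothelial covariate, 2 with scaling by library totals and 3 with voom; the cause was not tested. Leaving out each mouse gave 9 to 14 members called, 9 to 13 lower and 0 to 2 higher. With library totals, 1684 of all genes were called higher and 760 lower, against 1216 and 1025 with TMM and 1083 and 1162 with upper-quartile scaling; the median of all genes moved to 0.0839. The endothelial covariate left 1135 calls among all genes, against 2241.

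The sign turned only in 7 members that were not called. Slc25a13 was 0.00232 with the Y-linked covariate, 0.00314 with the endothelial covariate, 0.06 with library totals and 0.00183 when thinned. Slc25a16 was -8.74e-05 with 1 surrogate variable, -0.0106 with DESeq2, -0.00967 with RLE, -0.00364 with the Y-linked covariate, -0.00202 at a mean of at least 5 CPM, -0.0252 with upper-quartile scaling and -0.0131 with voom. Slc25a26 was -0.00732 with the Y-linked covariate, -0.16 with the endothelial covariate, -0.0142 when thinned and -0.00658 with upper-quartile scaling. Slc25a29 was -0.0466 and -0.20 with the Y-linked and endothelial covariates, and Slc25a45 was 0.11 with the latter. Leaving out single mice, Slc25a13 ranged from -0.10 to 0.0287, Slc25a16 from -0.06 to 0.06, Slc25a24 from -0.0186 to 0.31, Slc25a25 from -0.13 to 0.30, Slc25a26 from -0.0366 to 0.09 and Slc25a29 from -0.12 to 0.83. Paralog shares without single mice differed by -2.06 to -1.45 points (Slc25a4), 3.49 to 6.80 (Slc25a13), 1.72 to 2.93 (Slc25a37), 10.7 to 16.3 (Slc25a36), -1.28 to -0.0763 (Slc25a24) and -0.160 to 0.610 (Slc25a40), and in none was the adjusted p below 0.05.

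The replicate numbers gave little sign of paired mice. Deviations of same-numbered mice correlated at 0.112, -0.0124, -0.0604, 0.185 and 0.141, and 2 of 5 correlated best with their own number. Weak correlations cannot show that pairing was absent. With the replicate block 13 members were called, 12 lower and 1 higher, with Slc25a12 among those gained beside the 11, and 2182 of all genes. Sign flips within number gave an adjusted p of 0.188 for the shares of Slc25a4, Slc25a13, Slc25a37 and Slc25a36, 0.375 for Slc25a24 and 0.812 for Slc25a40; the smallest raw p possible there is 0.0625. Precision was lower in the 27 less abundant members, whose median SE of 0.167 is above the 0.115 of the upper 10.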
